A study of Mus musculus with 6 samples.

Results

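Tetraspanin genes were examined in cultured smooth muscle cells of the mouse pulmonary artery (mPASMCs) after knockdown of Snhg18, a long noncoding RNA that hosts small nucleolar RNAs. A gene was taken as a member when it was annotated as protein coding and its symbol was Tspan followed by a number, or was Cd9, Cd37, Cd53, Cd63, Cd81, Cd82, Cd151, Upk1a, Upk1b, Prph2 or Rom1. This gave 31 of the 55487 genes counted. The members were chosen by symbol, but the family was selected on measured values, since the read count of Cd53 stood out in these same libraries. Its level and difference are therefore given below as a description, without a test, and the counts of changed members leave it aside.

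Poly(A) RNA of 6 libraries was sequenced, 3 from cells transfected with a control siRNA (si-NC) and 3 from cells transfected with an siRNA against Snhg18 (si-Snhg18). The cells were primary mPASMCs bought from a supplier and transfected by lipofection. The sources used here do not state the oxygen level, the time after transfection or the animals behind the sequenced cells. Each group carries the replicate numbers 1 to 3, and nothing says that the replicates were separate cultures, so p-values measure only the spread between these libraries, which may be technical.

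Tetraspanins are small proteins that cross the membrane several times and carry a large extracellular loop, through which they hold other membrane proteins in clusters. Their best known partners are the laminin-binding integrins, immunoglobulin superfamily proteins, the metalloproteinase ADAM10 and the syndecan and syntenin route into exosomes. Most tissues express CD9, CD63, CD81 and CD151, whereas CD37 and CD53 are known mainly from leukocytes, and in vascular smooth muscle tetraspanins are studied for cell adhesion and migration.

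Total counts ranged from 18097718 reads (si-Snhg18 replicate 3) to 25988746 reads (si-Snhg18 replicate 1). The normalized level of Snhg18 was 22.7 CPM ± 0.711 (SD, n = 3) in si-NC and 10.6 CPM ± 0.590 in si-Snhg18, with 46.7% remaining (log2 fold change -1.10, SE 0.10, adjusted p = 0.00727 by edgeR's quasi-likelihood test). Levels are in CPM, the read count scaled to library size with TMM factors, and the adjusted p is that of Benjamini and Hochberg over the 14531 genes tested. Of the smooth muscle markers, Acta2 stood at 867 CPM ± 65.7 in si-NC and 743 CPM ± 259 in si-Snhg18, and Tagln fell by 0.51 on the log2 scale (SE 0.11, adjusted p = 0.0427). The fibroblast genes Col1a1 and Pdgfra were also present, at 1976 and 477 CPM in si-NC, so these markers alone do not separate the cells from fibroblasts. The summed level of 6 fibroblast markers, most of it Col1a1, ran from 2285 to 2985 CPM in si-NC and from 1416 to 2230.2 CPM in si-Snhg18. Col1a1 and Pdgfra were lower with the replicate block (log2 fold changes -0.65 and -0.35, adjusted p 0.00369 and 0.0112, against 0.250 and 0.189 without it). The other 4 were not called in that fit, Dpt and Dcn being at 0.19 and 0.07 and Lum and Tcf21 at -0.43 and -0.39. The sum of 9 smooth muscle markers ran from 1753 to 1902 CPM and from 1204 to 1856 CPM. With the block Tagln, Des, Cnn1 and Myh11 were lower (adjusted p 0.00375, 0.00154, 0.0113 and 0.0207). The last 3 of these did not pass without it (0.0916, 0.0812 and 0.297). The other 5 were not called with the block. Synpo2, Lmod1 and Acta2 had negative log2 fold changes in that fit (-0.73, -0.38 and -0.27, SE 0.24, 0.25 and 0.12). Myocd was at 0.39 (SE 0.35) and Smtn at 0.01 (SE 0.06). The part of these shifts in the results for tetraspanin and partner genes was not tested. Replicate 2 of both groups stood apart from replicates 1 and 3: for 13 of the 23 tested tetraspanin genes (56.5%) it was at the same end of both groups, against 62.0% of all tested genes. Deviations of genes from the group means correlated between libraries of the same number, most strongly for number 2. In a group of 3 libraries these deviations sum to 0, so replicate 2 alone can make numbers 1 and 3 correlate. A pairing of numbers 1 and 3 is thus not shown. Members whose call changes when the replicate number is a block in the fit are given with both values.

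The 31 tetraspanin genes together took 0.275% ± 0.00306 of counted reads in si-NC and 0.283% ± 0.00347 in si-Snhg18 (n = 3). Without Cd53 the shares were 0.264% ± 0.00358 and 0.278% ± 0.00354. Every si-Snhg18 library lay above every si-NC library by both measures, which are given as descriptions without a test. Per length of exon, Cd63 was the most abundant member in si-NC (572 CPM per kb), followed by Cd81 (291), Cd9 (207), Cd151 (160) and Tspan4 (105). Cd63 held 32.7% ± 0.559 of the family's summed level per kb in si-NC and 34.1% ± 2.15 in si-Snhg18. Tspan4 and its neighbour in this order, Tspan31 (102 CPM per kb in si-NC), overlapped across the si-NC libraries but not across the si-Snhg18 libraries. Cd53 was 8th in si-NC at 62.5 CPM per kb and 9th in si-Snhg18 at 29.1 CPM per kb, while Tspan9 moved from 9th (47.4) to 7th (68.2). Tspan11 was 10th in si-NC and 12th in si-Snhg18.

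**Figure D1:**
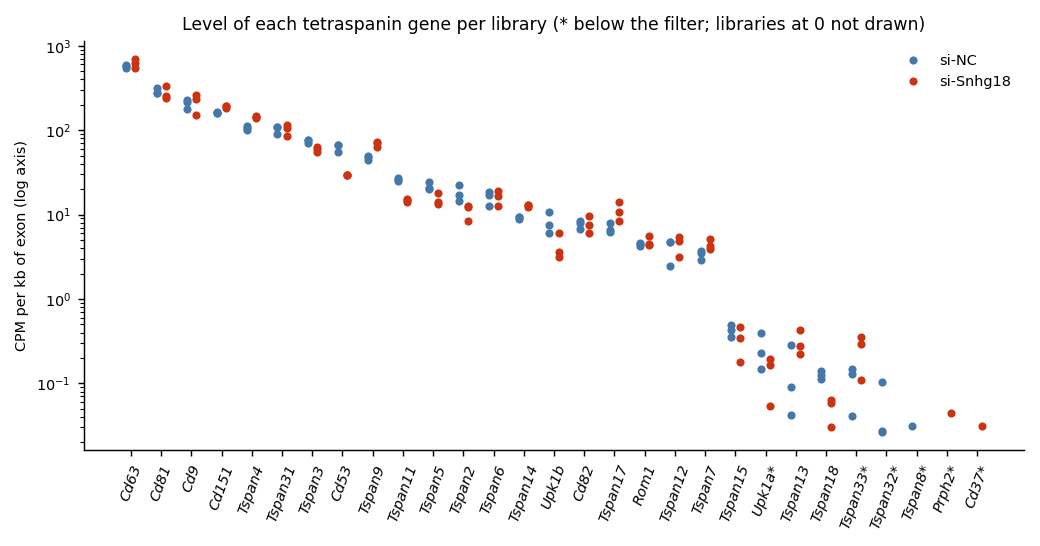
Level of each tetraspanin gene in every library, in CPM per kb of exon on a log axis, with genes in the order of their si-NC level; each point is 1 library, an asterisk marks genes below the filter on low counts, and libraries at 0 are not drawn. Cd63 lies highest at 572 CPM per kb in si-NC, and the si-Snhg18 points of Cd53 and Tspan11 lie below their si-NC points.

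After the filter on low counts, 23 members were tested, Cd53 among them. The other 8 had at most 18 reads in any library: Tspan33 reached 18 reads, Upk1a 13, Tspan32 4, Prph2 3, Tspan8 1 and Cd37 1, and Tspan1 and Tspan10 had 0 reads in all 6 libraries. A count of 0 allows a level of up to 0.164 CPM in the shallowest library, counting error only. Of the 22 tested members other than Cd53, 3 were higher in si-Snhg18 (Tspan9, Tspan4 and Tspan14) and 1 was lower (Tspan11) at an adjusted p under 0.05 by edgeR. Of all tested genes, 3.65% were called higher and 3.71% lower, 7.36% in either direction. With the replicate number as a block, 5 of the 22 were higher and 5 were lower, against 13.6% of all genes in each direction and 27.2% in either. The 1 lower member without the block was close to that background, and no test was made of these counts. The median log2 fold change of the 23 tested members, Cd53 included, was 0.02, beside 0.01 over all genes.

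**Figure D2:**
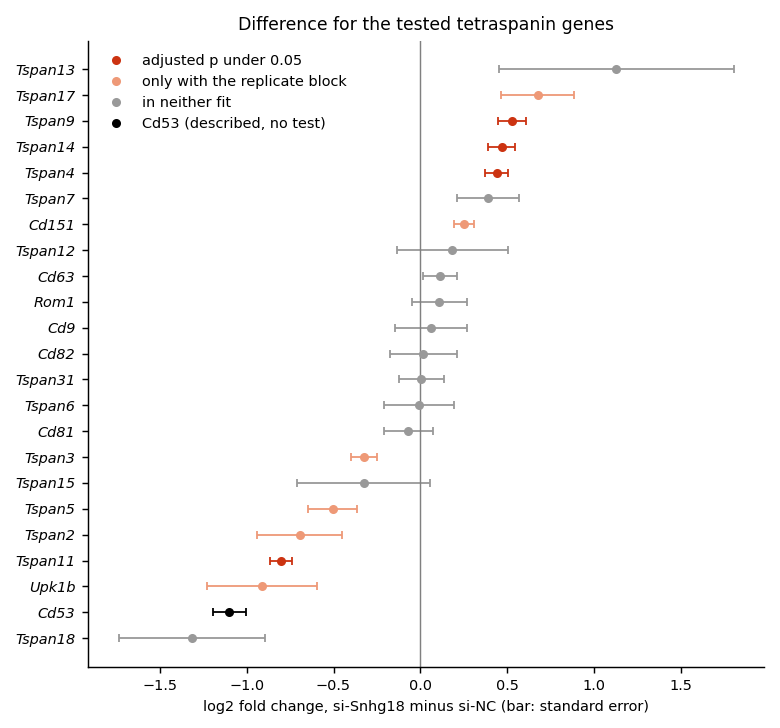
Log2 fold change (si-Snhg18 minus si-NC) of each of the 23 tested tetraspanin genes, with bars of 1 standard error from edgeR; colour separates genes with an adjusted p under 0.05, genes called in the edgeR fit with the replicate block but not in that without it, genes called in neither fit, and Cd53, which is described without a test. Cd53 lies at -1.10 and Tspan11 at -0.80, whereas Tspan9, Tspan4 and Tspan14 lie between 0.44 and 0.53.

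The promoter windows of Cd53 and of the 4 members called in the fit without a block are printed here, because these members set the pattern and their start regions differ in base composition. Sequences are those of RefSeq on GRCm38.p6, each 300 bases long from 250 bases before the start to 50 bases after it, 5′ to 3′ on the gene's strand. Where RefSeq has several starts, the window nearest the annotated gene start is shown. Capitals mark the GC box GGGCGG, the core that Sp1 family factors bind, or the motif GAGGAAGT, a form of the site bound by PU.1, a transcription factor of myeloid and B cells, each searched on both strands.
Cd53, chr3:106790100-106790399, minus strand: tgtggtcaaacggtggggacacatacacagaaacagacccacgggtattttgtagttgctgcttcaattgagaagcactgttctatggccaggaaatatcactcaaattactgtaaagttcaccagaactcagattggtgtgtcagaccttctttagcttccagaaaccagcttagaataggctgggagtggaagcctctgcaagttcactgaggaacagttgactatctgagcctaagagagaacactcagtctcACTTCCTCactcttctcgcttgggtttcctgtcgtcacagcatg
Tspan11, chr6:127887372-127887671, plus strand: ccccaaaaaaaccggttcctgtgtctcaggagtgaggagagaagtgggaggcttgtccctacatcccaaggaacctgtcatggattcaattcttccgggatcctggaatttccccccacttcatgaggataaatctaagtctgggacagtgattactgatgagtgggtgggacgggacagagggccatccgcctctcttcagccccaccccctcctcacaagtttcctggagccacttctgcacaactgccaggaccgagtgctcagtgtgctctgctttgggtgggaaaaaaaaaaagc
Tspan9, chr6:128143529-128143828, minus strand: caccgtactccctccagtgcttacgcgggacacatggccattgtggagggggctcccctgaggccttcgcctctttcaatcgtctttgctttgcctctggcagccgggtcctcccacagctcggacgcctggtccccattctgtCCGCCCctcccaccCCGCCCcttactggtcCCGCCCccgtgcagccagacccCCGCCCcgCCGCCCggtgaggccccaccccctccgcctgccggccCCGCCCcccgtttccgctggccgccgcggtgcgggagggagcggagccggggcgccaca
Tspan4, chr7:141474986-141475285, plus strand: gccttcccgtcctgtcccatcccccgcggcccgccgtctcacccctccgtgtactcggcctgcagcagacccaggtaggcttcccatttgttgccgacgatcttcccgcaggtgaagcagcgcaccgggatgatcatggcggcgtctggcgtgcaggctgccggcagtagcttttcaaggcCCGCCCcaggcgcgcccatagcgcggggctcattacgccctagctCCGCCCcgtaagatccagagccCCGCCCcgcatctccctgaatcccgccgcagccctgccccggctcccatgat
Tspan14, chr14:40966847-40967146, minus strand: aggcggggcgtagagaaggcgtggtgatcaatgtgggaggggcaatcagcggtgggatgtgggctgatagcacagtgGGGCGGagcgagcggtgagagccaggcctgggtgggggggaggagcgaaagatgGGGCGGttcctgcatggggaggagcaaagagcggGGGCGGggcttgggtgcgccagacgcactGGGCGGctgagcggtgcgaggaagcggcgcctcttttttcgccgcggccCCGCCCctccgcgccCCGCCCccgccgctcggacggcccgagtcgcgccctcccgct
The windows of Cd53 and Tspan11, the pair that were lower in si-Snhg18, hold 0 GC boxes, and those of the higher Tspan9, Tspan4 and Tspan14 hold 6, 3 and 6. Over 32817 mouse promoter windows, 35.6% hold at least 1 GC box and 10.7% hold 3 or more. The bases G and C make up 46.3% of the Cd53 window and 53.3% of the Tspan11 window, but 73.3% for Tspan9, 68.7% for Tspan4 and 72.3% for Tspan14. The ratio of observed to predicted CpG is 0.248 for Cd53 and 0.235 for Tspan11, and 0.739, 0.863 and 0.894 for Tspan9, Tspan4 and Tspan14. This split did not extend to all members called with the block but not without it: Tspan5, which was lower, has 3 GC boxes. Tspan17 and Cd151, which were higher, have 10 and 2, and Tspan2 and Tspan3, which were lower, have 0. Upk1b has no window. Of the tested members called in neither fit, Cd63, Tspan31, Tspan6, Tspan12 and Tspan15 also have 0 GC boxes. Cd81, Cd9, Cd82, Rom1, Tspan7 and Tspan13 have 1 to 4. Since Cd53 led to the choice of the family, the lower side of the split otherwise rests on Tspan11 alone. The motif GAGGAAGT occurs once in the Cd53 window, on the opposite strand 7 bases into the transcribed part, and once in that of Cd37, against 3.20% of all windows. The TATA box TATAAA (13.6% of all windows) and the E-box CACGTG (7.15%) were also searched and occur in none of the 5 printed windows. Of the 31 members, 29 have a window, 15 of them with a GC box, and those of Cd63 and Tspan3 belong to starts 8356 and 4407 bases from the annotated one. These are descriptions of letters chosen with the values known, not evidence of binding.

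Cd53 encodes a tetraspanin of B cells, T cells and myeloid cells that is known to support signalling and adhesion of leukocytes. Its gene lies on chr3:106759921-106790149 (minus strand, GRCm38.p6). It had 2672, 2320 and 2748 reads in si-NC replicates 1 to 3 and 1293, 1315 and 922 reads in si-Snhg18 replicates 1 to 3. Scaled for depth, these are 115, 94.7 and 116 CPM against 51.2, 50.6 and 50.5 CPM. The means were 109 CPM ± 12.2 and 50.7 CPM ± 0.359 (SD, n = 3), so 46.6% of the si-NC level remained (log2 fold change -1.10, SE 0.10). The 3 si-Snhg18 libraries stood nearly level with each other and below all 3 si-NC libraries, of which replicate 2 was the lowest. Without each library in turn the log2 fold change ranged from -1.19 to -1.05. Within the family's summed level per kb, Cd53 went from 3.57% ± 0.349 to 1.61% ± 0.0780. No exon base of Cd53 is shared with another annotated gene. In bulk RNA, fewer cells of a type and less RNA per cell cannot be told apart.

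Most other genes of leukocytes were low or absent beside this level of Cd53. The exception was Cd14, at 31.2, 11.2 and 31.3 CPM in si-NC and 49.2, 15.5 and 46.1 CPM in si-Snhg18, which in si-Snhg18 replicates 1 and 3 came close to Cd53. Of 20 leukocyte markers, 15 were below the filter with at most 22 reads in any library, and 6 of these had 0 reads in all 6 libraries (Spi1, which encodes PU.1, Adgre1, Tyrobp, Cd52, Cd48 and Cd3e). Ptprc, the pan-leukocyte CD45 gene, had at most 8 reads, against 922 to 2748 reads of Cd53. The 5 markers tested were Cd14, Csf1r, Itgb2, Cd68 and Lyz2, and the smallest adjusted p among them was 0.374 (Lyz2, log2 fold change 0.49, SE 0.31). With the replicate block, Cd14 was higher in si-Snhg18 (log2 fold change 0.57, SE 0.08, adjusted p = 0.00369), the opposite direction to Cd53. The summed level of the 20 markers ran from 24.7 to 46.3 CPM in si-NC and from 27.9 to 66.8 CPM in si-Snhg18. Cd14 was the largest single part of it in every library. The leukocyte relatives of Cd53 gave no second member of this kind: Cd37 reached 1 read and Tspan32 4 reads. Cd82, a widely expressed member of the same group that restrains cell migration, stood at 12.8 CPM ± 1.35 in si-NC and 12.9 CPM ± 2.98 in si-Snhg18 (log2 fold change 0.02, SE 0.19, adjusted p = 0.969). Among 9 tested genes within 500 kb of Cd53, the nearest, Lrif1 at 23.3 kb, had a log2 fold change of 0.17 (SE 0.09, adjusted p = 0.281). The smallest adjusted p there was that of Cept1 at 212.1 kb (-0.47, SE 0.11, adjusted p = 0.055), which passed with the block (adjusted p = 0.00299).

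**Figure D3:**
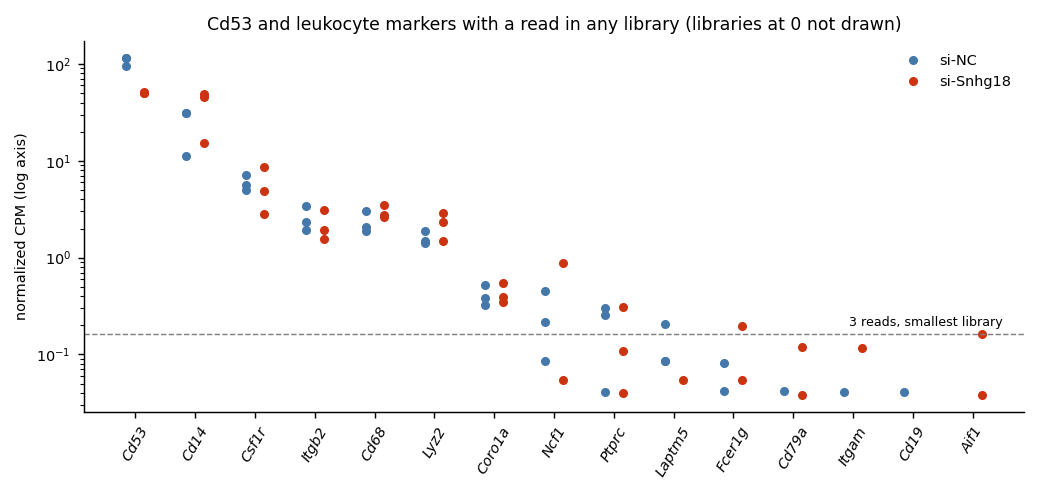
Level of Cd53 and of each leukocyte marker that had a read in any library, in normalized CPM on a log axis, with 1 point per library. Cd53 lies between 50.5 and 116 CPM, Cd14 between 11.2 and 49.2 CPM, and Ptprc at or below 0.308 CPM.

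Tspan11 and Cd151 form the group tied to laminin-binding integrins, and they differed in opposite directions. Tspan11 is a close relative of CD151 whose own role is less well described. It stood at 129, 139 and 132 CPM in si-NC replicates 1 to 3 and at 73.4, 76.7 and 79.3 CPM in si-Snhg18. All si-Snhg18 libraries lay well below all si-NC libraries. The means of 133 CPM ± 5.09 and 76.5 CPM ± 2.93 left 57.3% of the si-NC level, and Tspan11 fell by 0.80 on the log2 scale (SE 0.07, adjusted p = 0.00727 by edgeR). The log2 fold change kept within -0.83 to -0.77 when single libraries were left out, but the adjusted p rose to at most 0.0700 without si-NC replicate 1, si-NC replicate 3 or si-Snhg18 replicate 3, when 0 genes of the whole table passed.

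Cd151 encodes the tetraspanin that binds the laminin-binding integrins most tightly. Its levels were 305, 296 and 295.5 CPM in si-NC and 360.1, 345.5 and 361 CPM in si-Snhg18. The groups did not overlap, and the means were 299 CPM ± 5.49 and 355.5 CPM ± 8.61. The log2 fold change of 0.25 (SE 0.06) had an adjusted p of 0.0547 and passed with the replicate block (adjusted p = 0.0142), but not with the block and without replicate 3 (adjusted p = 0.187). DESeq2 called it without the block (adjusted p = 0.00213). Cd151 shares 193 exon bases with a predicted gene on the other strand, Gm10575, and the strand setting of the counting is not given in the sources used here.

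Tspan9 and Tspan4 rose. Tspan9 is best known from platelets, where it sits beside the collagen receptor, and Tspan4 is a marker of migrasomes, vesicles left behind on retraction fibres by migrating cells. Tspan9 stood at 189, 183.5 and 170.0 CPM in si-NC and at 268, 240.5 and 273 CPM in si-Snhg18. Its lowest si-Snhg18 library, replicate 2, was above its highest si-NC library. The means were 181 CPM ± 9.75 and 260.3 CPM ± 17.3 (log2 fold change 0.53, SE 0.08, adjusted p = 0.0185). Tspan4 stood at 154, 163.5 and 146 CPM in si-NC and at 206, 209 and 213 CPM in si-Snhg18. These groups were apart as well, with means of 154.5 CPM ± 8.88 and 209 CPM ± 3.69 (log2 fold change 0.44, SE 0.07, adjusted p = 0.0195). Its share of the family's summed level per kb went from 6.03% to 7.90%. Tspan4 shares 292 exon bases with Chid1 on the other strand. The adjusted p of both genes was under 0.05 in 1 of 6 fits with a library left out, the one without si-Snhg18 replicate 2, and reached at most 0.108 for Tspan9 and 0.122 for Tspan4. With the block, both were lost without replicate 3 (adjusted p 0.0580 and 0.0725).

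Several of these genes lie close together. Tspan11 (plus strand) and Tspan9 (minus strand) lie on chromosome 6 with their 3′ ends facing, 7.4 kb apart and with 0 annotated genes between them, and they moved in opposite directions. Cd151 and Tspan4 lie on the plus strand of chromosome 7, 3.8 kb apart, with 1 annotated gene between them, and both had higher levels in every si-Snhg18 library than in any si-NC library. Tspan32 and Cd81 lie 33.1 kb apart on chromosome 7, and Tspan18 and Cd82 84.6 kb apart on chromosome 2 with 2 genes between them.

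Members of the TspanC8 group carry ADAM10 out of the endoplasmic reticulum and steer it to its substrates. Of the 6, Tspan5, Tspan14, Tspan15 and Tspan17 were tested. Tspan14 stood at 22.0, 23.1 and 23.0 CPM in si-NC and at 31.7, 30.6 and 31.7 CPM in si-Snhg18. Its libraries were close within each group and far apart between groups. With means of 22.7 CPM ± 0.591 and 31.4 CPM ± 0.617, Tspan14 rose by a log2 fold change of 0.47 (SE 0.08, adjusted p = 0.0230). That call also rested on single libraries (adjusted p 0.0147 without si-Snhg18 replicate 2, and up to 0.139 without any other), and with the block it was lost without replicate 3 (adjusted p = 0.0999).

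**Figure D4:**
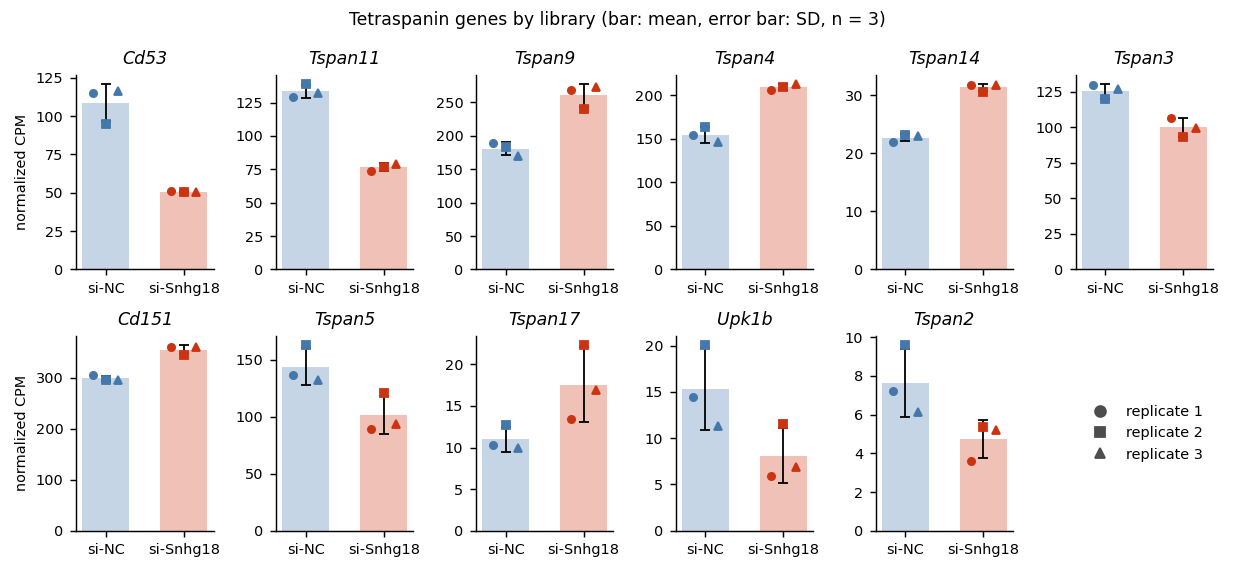
Normalized CPM in each library of Cd53 and of the 10 members called with or without the replicate block; bars are means, error bars are SD (n = 3), and the marker shape gives the replicate number. Cd53 stands at 109 CPM in si-NC and 50.7 CPM in si-Snhg18, Tspan14 at 22.7 and 31.4 CPM, and in Tspan5 replicate 2 is the highest library of both groups.

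Tspan5 and Tspan17, which are close relatives, differed in opposite directions, and in edgeR with all libraries both passed with the replicate block and not without it. DESeq2 called both without the block (adjusted p 0.0176 and 0.0310). Tspan5 had 136.5, 163 and 133 CPM in si-NC and 89.7, 121 and 93.9 CPM in si-Snhg18. Replicate 2 was the highest of both groups, and within each replicate number the si-Snhg18 library was the lower one. The log2 fold change of -0.51 (SE 0.14) had an adjusted p of 0.0832, and 0.00164 with the block. Tspan17 had 10.4, 12.7 and 9.91 CPM in si-NC and 13.4, 22.3 and 16.9 CPM in si-Snhg18. Replicate 2 was again the highest of both groups. Its log2 fold change was 0.67 (SE 0.21, adjusted p = 0.112), and 0.65 (SE 0.13, adjusted p = 0.00978) with the block. Without replicate 3 the blocked adjusted p was 0.117 for Tspan17 and 0.0457 for Tspan5. Tspan15, which directs ADAM10 to cadherins, was low at 1.53 CPM ± 0.250 in si-NC and 1.21 CPM ± 0.520 in si-Snhg18 (adjusted p = 0.641). The other members of the group, Tspan33 and Tspan10, were below the filter.

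The CD63 group of endosomes and exosomes held the most abundant member. Cd63, a standard marker of late endosomes and exosomes, stood at 652, 610.3 and 640.3 CPM in si-NC and at 765, 605 and 688 CPM in si-Snhg18. The groups overlapped through replicate 2 of si-Snhg18, the lowest of all 6 libraries. The means were 634 CPM ± 21.6 and 686 CPM ± 79.6 (log2 fold change 0.11, SE 0.10, adjusted p = 0.512). Tspan3, a relative found in the same compartments, stood at 129.8, 119.7 and 127 CPM in si-NC and at 107, 93.4 and 99.7 CPM in si-Snhg18. Its groups did not overlap. The log2 fold change of -0.33 (SE 0.07) had an adjusted p of 0.0514, and 0.00594 with the block, which rose to 0.106 without replicate 3. DESeq2 called Tspan3 without the block (adjusted p = 0.0127). Tspan31 had a log2 fold change of 0.00 (SE 0.13, adjusted p = 0.987), and it shares 641 exon bases with Cdk4 on the other strand. Tspan13 was at the edge of detection, with 2 to 15 reads per library (log2 fold change 1.13, SE 0.67, adjusted p = 0.352).

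The CD9 and CD81 group links the immunoglobulin proteins EWI-2 and EWI-F to the cell surface and to cell fusion. Cd81 stood at 425, 489 and 426 CPM in si-NC and at 366, 518 and 393 CPM in si-Snhg18. Cd9 stood at 265, 219 and 278 CPM in si-NC and at 323, 187 and 286 CPM in si-Snhg18. Both genes overlapped between groups, with replicate 2 the highest in Cd81 and the lowest in Cd9 in each group. The log2 fold changes were -0.07 for Cd81 (SE 0.14, adjusted p = 0.802) and 0.06 for Cd9 (SE 0.21, adjusted p = 0.884). With SEs of this size a modest difference in either gene was not detectable. With the block the values were -0.08 for Cd81 (SE 0.07, adjusted p = 0.417) and 0.03 for Cd9 (SE 0.09, adjusted p = 0.831). Tspan2, a tetraspanin of myelin-forming cells that is also known from vascular smooth muscle, stood at 7.21, 9.60 and 6.14 CPM in si-NC and at 3.60, 5.38 and 5.21 CPM in si-Snhg18. All si-Snhg18 libraries lay below the si-NC libraries, and the log2 fold change of -0.70 (SE 0.24, adjusted p = 0.142) passed with the block (adjusted p = 0.0329), though not without replicate 2 (0.108) or replicate 3 (0.0724). Tspan2 has 88 exon bases in common with its antisense gene Tspan2os. Tspan8 had 1 read in 1 library.

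Upk1b, a uroplakin of the bladder lining that is also known from mesothelium, stood at 14.4, 20.05 and 11.35 CPM in si-NC and at 5.90, 11.5 and 6.90 CPM in si-Snhg18. The groups overlapped through replicate 2 of si-Snhg18, and within each replicate number the si-Snhg18 library was lower. The log2 fold change of -0.91 (SE 0.32) had an adjusted p of 0.139, and -0.93 (SE 0.15, adjusted p = 0.00436) with the block. DESeq2 called Upk1b without the block (adjusted p = 0.0402). The summed level of 7 epithelial markers ran from 79.8 to 88.3 CPM in si-NC and from 46.3 to 55.5 CPM in si-Snhg18. Nearly all of it came from Krt19 and Krt18, while Epcam and Cdh1 had at most 3 reads. In both groups replicate 2, the highest for Upk1b, was the highest for Krt18 and the lowest for Krt19. Krt19 and Krt18 passed with the block (adjusted p 0.0011 and 0.00216) but not without it (0.0618 and 0.226). The part of any epithelial cells in the Upk1b result was not tested. Its partners Upk2, Upk3a, Upk3b and Upk3bl had at most 24 reads in any library.

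The remaining members passed in neither fit. Tspan12, a co-receptor in Norrin and Frizzled4 signalling, had a log2 fold change of 0.18 (SE 0.32, adjusted p = 0.764). Tspan6, known for the turnover of exosomal cargo, was at -0.01 (SE 0.20). Tspan7, a partner of neuronal receptors, stood at 6.13, 6.45 and 5.04 CPM in si-NC and at 6.69, 8.96 and 7.40 CPM in si-Snhg18, groups that did not overlap (log2 fold change 0.39, SE 0.18, adjusted p = 0.242). Rom1, a photoreceptor disc protein, was at 0.11 (SE 0.16). Tspan18, known from endothelial calcium entry, had 3 to 13 reads per library, all si-Snhg18 levels being below all si-NC levels (log2 fold change -1.31, SE 0.42, adjusted p = 0.117). Among all 23 tested members 12 did not overlap between groups, or 11 of 22 without Cd53, against 30.9% of all tested genes.

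The genes of tetraspanin partners were read from the same fit. Of 52 listed, 48 were tested, and 2 were higher and 5 lower in si-Snhg18, against a background of 3.65% and 3.71%. With the block 8 were higher and 10 were lower, against 13.6% each. The median log2 fold change over the 48 was -0.02. The counts by list below stand against the same shares of all genes, and no test was made of them.

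Among 10 tested integrin genes, 2 were lower, and with the block 1 was also higher. That gene was Itga5, the fibronectin receptor alpha chain, at 652 CPM ± 78.6 in si-NC and 952 CPM ± 179.9 in si-Snhg18. Its groups did not overlap (log2 fold change 0.55, SE 0.16, adjusted p = 0.0973, and 0.00222 with the block). Itga3 encodes the laminin-binding alpha chain that pairs with CD151, and it stood at 56.4, 44.5 and 54.1 CPM in si-NC and at 26.9, 19.6 and 26.03 CPM in si-Snhg18. All si-Snhg18 libraries were below all si-NC libraries, and Itga3 fell by 1.10 on the log2 scale (SE 0.16, adjusted p = 0.0162). Its beta chain Itgb1 fell by 0.42 (SE 0.07, adjusted p = 0.0216), from 2655 CPM ± 123 to 1979 CPM ± 81.0. The other laminin-binding alpha chains had log2 fold changes of 0.18 for Itga6 (SE 0.42, adjusted p = 0.831) and -0.38 for Itga7 (SE 0.16, adjusted p = 0.203).

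Of the 5 immunoglobulin partners, Icam1, an adhesion receptor for leukocytes, fell by 0.60 on the log2 scale (SE 0.10, adjusted p = 0.0208), from 39.7 CPM ± 2.60 to 26.1 CPM ± 1.98. Vcam1, which has a similar role, stood at 314, 499.6 and 280.2 CPM in si-NC and at 107, 303 and 131 CPM in si-Snhg18. Its groups overlapped through replicate 2 of si-Snhg18, and it passed with the block (log2 fold change -1.12, SE 0.14, adjusted p = 0.002, against 0.206 without it). Igsf8 and Ptgfrn, the genes of EWI-2 and EWI-F, had log2 fold changes of 0.13 (SE 0.18, adjusted p = 0.718) and 0.24 (SE 0.06, adjusted p = 0.0662, and 0.0209 with the block).

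Of the 8 genes of ADAM10 and its substrates, 1 was higher and 1 was lower. Adam10 itself was measured at 174 CPM ± 8.21 and 187 CPM ± 13.7 (log2 fold change 0.11, SE 0.08, adjusted p = 0.439). Adam17, a related sheddase, rose by 0.42 on the log2 scale (SE 0.08, adjusted p = 0.0377). Cd44, the hyaluronan receptor and an ADAM10 substrate, fell by 0.36 (SE 0.07, adjusted p = 0.0404).

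Of the 17 exosome genes, 1 was higher and 1 was lower, both of them syndecans, the heparan sulfate proteoglycans that carry syntenin into exosomes. Sdc3 rose by 0.56 on the log2 scale (SE 0.09, adjusted p = 0.0190), from 261 CPM ± 19.6 to 384 CPM ± 24.6. Sdc4 fell by 0.72 (SE 0.09, adjusted p = 0.0126), from 249 CPM ± 19.4 to 151 CPM ± 12.5. With the block Stam and Lamp1 were also higher (log2 fold changes 0.27 and 0.25, adjusted p 0.0131 and 0.0198, against 0.0707 and 0.0931 without it). Sdc1 was lower with the block (log2 fold change -0.66, SE 0.09, adjusted p = 0.00250, against 0.181 without it). The syntenin gene Sdcbp (0.10, SE 0.18, adjusted p = 0.785), the ALIX gene Pdcd6ip (-0.18, SE 0.08, adjusted p = 0.242) and Tsg101 (0.08, SE 0.06, adjusted p = 0.431) were not called, as Cd63 was not.

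For the 4 palmitoyltransferases and the 4 Norrin and Frizzled4 genes, the smallest adjusted p values were 0.0941 (Zdhhc6, log2 fold change -0.48, SE 0.14) and 0.0866 (Ndp, -1.48, SE 0.42). With the block Zdhhc4 was higher and Zdhhc6 lower (adjusted p 0.0245 and 0.00717), and Lrp6 was higher and Lrp5 and Ndp lower (adjusted p 0.0440, 0.0183 and 0.0320). Ndp, the ligand that signals through the receptor complex with TSPAN12, was at -1.48 in that fit too (SE 0.40), with at most 40 reads in any library.

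**Figure D5:**
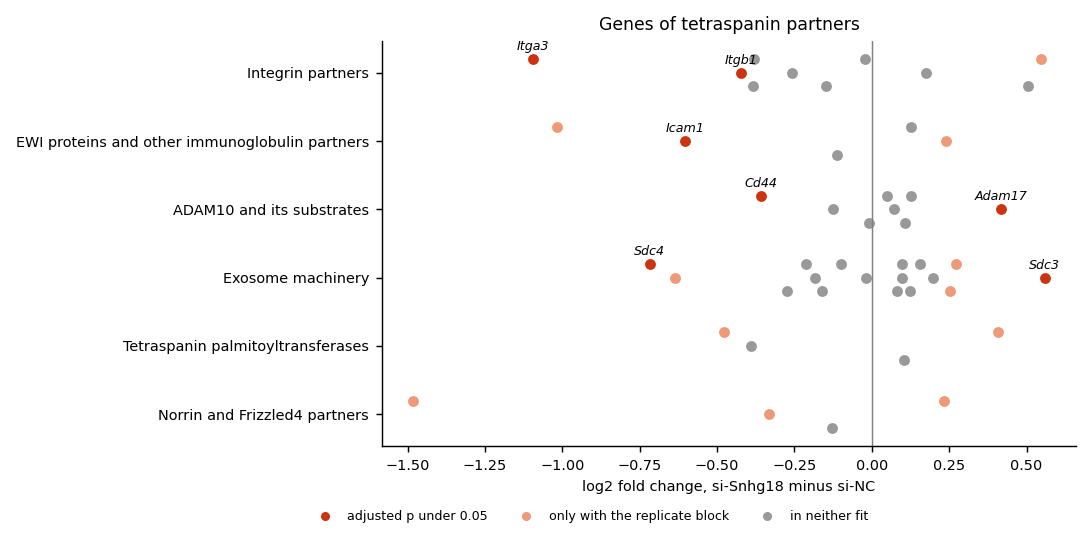
Log2 fold change (si-Snhg18 minus si-NC) of the 48 tested partner genes, in rows by list; dark points passed at an adjusted p under 0.05, light points passed in the edgeR fit with the replicate block but not in that without it, and grey points in neither fit. Itga3 lies at -1.10, Sdc4 at -0.72 and Sdc3 at 0.56.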

How the data were processed

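RNA from 3 si-NC and 3 si-Snhg18 libraries was sequenced with a stranded poly(A) kit, after the submitters had required a minimum RNA integrity number. The authors deposited 1 table of raw read counts per gene on GRCm38.p6 (file header), with exon length in bases, gene type and coordinates. The submitters' processing notes name HISAT2 and mm10; the HISAT2 version, the counting program, its strand setting and its treatment of reads shared by genes are not given in the sources used here. Columns were matched to samples by name, the column prefix for si-Snhg18 being an abbreviation. There are 0 columns of other samples. No molecular identifiers were used, so floors of 3 reads (0.115 to 0.164 CPM per library) cover counting error only.

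Counts were filtered with filterByExpr (minimum count 10), scaled by TMM and tested with edgeR's quasi-likelihood test (glmQLFit, glmQLFTest; edgeR 4.0.16, limma 3.58.1, R 4.3.3) over all 6 libraries, with Benjamini-Hochberg adjustment over 14531 genes and calls at an adjusted p under 0.05. The standard error is the absolute log2 fold change divided by the square root of F. The procedure was tested on simulated data drawn without an effect of the replicate number. That test therefore does not cover the shift of replicate 2. CPM per kb uses the deposited exon length, which for Tspan2 (425 bases) is much shorter than its GENCODE M21 exons, so its place in that order is uncertain. Alternatives were RLE scaling, no TMM factors, DESeq2 1.42.0, limma-voom, other filters and thresholds, the replicate number as a block, and leaving out libraries. Deviations of same-numbered libraries from their group means correlated (r = 0.41, 0.742 and 0.359 for numbers 1, 2 and 3 over 14531 genes). Replicate 2 alone can make the values for numbers 1 and 3 positive, and libraries of unlike number were not compared in this way. The labels only number the repeats, so any pairing comes from the data. No 2 libraries agreed within sampling noise.

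Members, lists, motifs and tests were chosen with earlier results of these data known. Named by rule were all members, with values by library for those called with or without the block, Cd53 and the 5 highest per kb; and partner genes called without the block, or called with it at 1.5-fold or more, at most 3 per direction and list. Other genes and values by library (Tspan7, Igsf8, Ptgfrn, Itga6, Itga7, Adam10, Sdcbp, Pdcd6ip, Tsg101, Zdhhc4, Zdhhc6, Itga5, Stam, Lamp1, Lrp5, Lrp6, Lrif1, Cept1 and the cell type markers) were added for their roles or after their values were seen. Promoter sequences come from RefSeq. siRNA sequences are not printed.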

Additional observations from a re-analysis of the deposited data

How the results depend on the processing

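For tetraspanin genes other than Cd53 (3 higher, 1 lower) and partner genes (2 higher, 5 lower), most alternatives moved the counts. DESeq2 gave 5 and 4 members and 7 partners higher. Library totals without TMM factors, and the filter of 1 CPM in 3 libraries, each gave 2 members lower, and no filter gave 1 partner higher. The replicate block gave 5 higher and 5 lower members and 8 higher and 10 lower partners, and in DESeq2 5 and 5 members and 7 and 9 partners. A fold of at least 1.5 left 0 members and 0 partners higher and 3 partners lower. An adjusted p under 0.1 gave 3 members lower and 7 partners higher. Leaving out 1 library gave 0 to 4 members higher, 0 to 4 lower, 0 to 5 partners higher and 0 to 10 lower. All 4 counts were 0 by edgeR without si-NC replicate 1, si-NC replicate 3 or si-Snhg18 replicate 3, where 0 genes of the whole table passed, against 1069 with all libraries and 3282 without si-Snhg18 replicate 2; members higher were also 0 without si-NC replicate 2 or si-Snhg18 replicate 1, and partners higher 0 without si-NC replicate 2. With the block and without 1 replicate number, counts ran from 0 to 6 and 3 to 5 for members (0 higher without replicate 3) and up to 9 and 13 for partners. In those fits the Snhg18 log2 fold change ran from -1.15 to -1.07, and without the block from -1.14 to -1.06 (adjusted p up to 0.0703).

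Directions were steadier than calls. Of 238 single-gene values under an alternative, 4 changed sign: Cd81 without si-Snhg18 replicate 1 (0.029, in a range of -0.24 to 0.029 over the fits without 1 library), and Cd9 without si-NC replicate 2 (-0.04), without si-Snhg18 replicate 1 (-0.10) and with the block without replicate 1 (-0.10), in a range of -0.10 to 0.26. Another 38 of the 238 passed where the reported fit did not and 22 ceased to pass. Of the tested members outside the 238, Tspan31, Tspan6, Cd82, Rom1 and Tspan12 changed sign among the fits without 1 library (Tspan6 from -0.16 to 0.14). Tspan7, Tspan13, Tspan15 and Tspan18 kept theirs. Tspan14 also lost its call with no filter on low counts. The block changed no other call of a member than those given in the report. The difference in the family's share of reads was 0.00738 percentage points with Cd53 and 0.0131 without it, an alternative chosen after seeing the data. Limits are the 3 libraries per group, an unstated strand setting for overlapping genes, and low counts for Tspan13, Tspan18 and the 8 untested members. The causes of these shifts were not tested.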
